A study of Homo sapiens with 6 samples.

Results

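The ATP-binding cassette (ABC) transporter family was examined in Huh7, a widely used cell line that comes from a human hepatocellular carcinoma. Members were the protein-coding genes whose symbol begins with ABC, a subfamily letter from A to G and a number. This pattern took 45 of the 58735 genes in the table, of which 19951 are protein-coding. It misses CFTR, TAP1 and TAP2, which belong to the family but carry other symbols. The 6 libraries form a control group (shcontrol, 3 libraries) and a knockdown group with a hairpin against TRIM15 (shTRIM15, 3 libraries), all from Huh7 cells in RPMI-1640 with fetal bovine serum. Per the series title, the study concerns TRIM15, a ubiquitin ligase of the tripartite motif family, and the response of liver cancer cells to tyrosine kinase inhibitors. No drug treatment is named for these libraries. How many hairpins, clones or separate cultures lie behind each group is not given, so p-values measure the spread between these libraries, which may be technical.

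ABC proteins bind and hydrolyse ATP, and most use it to move a substrate across a membrane. The multidrug efflux pumps export drugs and conjugated metabolites at the plasma membrane, and several tyrosine kinase inhibitors are known substrates of ABCB1 and ABCG2. Other members carry bile salts, phospholipids, sterols, very long chain fatty acids or haem precursors, while the E and F subfamilies have no membrane domain and act on ribosomes. In hepatocytes, ABCB11, ABCB4, ABCC2, ABCG5 and ABCG8 sit in the canalicular membrane and build bile, and ABCA1 loads cholesterol onto apolipoprotein A-I.

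Levels are in FPKM, that is, fragment counts scaled to gene length and library size. They compare genes only roughly, because the gene length used can exceed that of a transcript. For ABCC6 it was 7569 bases, against 5747 for 1 of its transcripts. Libraries held 17332508 to 19556855 reads. The targeted transcript, TRIM15, was at 5.17, 5.09 and 4.88 FPKM in the control libraries and at 3.23, 2.11 and 2.51 FPKM in the knockdown libraries, so it was reduced but still present. All 9 hepatocyte markers were at 0.5 FPKM or more (ALB, albumin, averaged 914 FPKM), as were 1 of 4 fibroblast, 0 of 3 endothelial and 0 of 3 immune markers. Summed over each list, hepatocyte markers ranged from 1558 to 1598 FPKM in control and 1551 to 1584 in knockdown libraries. The corresponding ranges were 1.12 to 1.22 and 1.12 to 1.38 FPKM for fibroblast markers, 0.307 to 0.433 and 0.246 to 0.398 FPKM for endothelial markers, and 0.0180 to 0.104 and 0.0262 to 0.0842 FPKM for immune markers. Mitochondrial reads made up 4.04 to 4.09% of control and 3.75 to 3.85% of knockdown reads. The part of this shift in the results that follow was not tested. The libraries are bulk samples, so fewer cells of a type and less RNA per cell cannot be told apart.

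The ABC repertoire of Huh7 was broad but uneven. Across the 6 libraries, 22 of 45 members averaged 1 FPKM or more, 6 of them 10 FPKM or more, and 12 averaged under 0.1 FPKM. The 5 most abundant members made up 49.5% of the summed ABC signal of the control libraries and the 10 most abundant 71.4%. By FPKM, the most abundant was ABCF1, a soluble ATPase that assists translation initiation, followed by ABCB1, which encodes the drug pump P-glycoprotein. Next came ABCD3, a peroxisomal fatty acid transporter, and ABCE1, which splits ribosomes after termination. By role, the 8 efflux pumps held 32.1% of the summed control signal and the 4 soluble ATPases 32.0%. The peroxisomal and lysosomal D subfamily held 14.8%, the mitochondrial and endomembrane group 10.1%, and the lipid exporters of the A and G subfamilies 8.57%.

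Exporters that define bile formation were among the lowest. ABCB11, the bile salt export pump, lay between 0.0206 and 0.0394 FPKM in the 6 libraries, which is 3 to 6 reads per library. ABCG5 and ABCG8, which together form the sterol exporter, did not exceed 0.153 and 0.0865 FPKM. ABCB4, the phosphatidylcholine floppase, reached a mean of 0.804 FPKM in control. The canalicular conjugate pump ABCC2 differed from these, at 8.59 ± 0.374 FPKM in control (SD, n = 3). Thus the bile-forming genes ranged from close to 0 up to ABCC2, which was the 10th most abundant member.

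**Figure D1:**
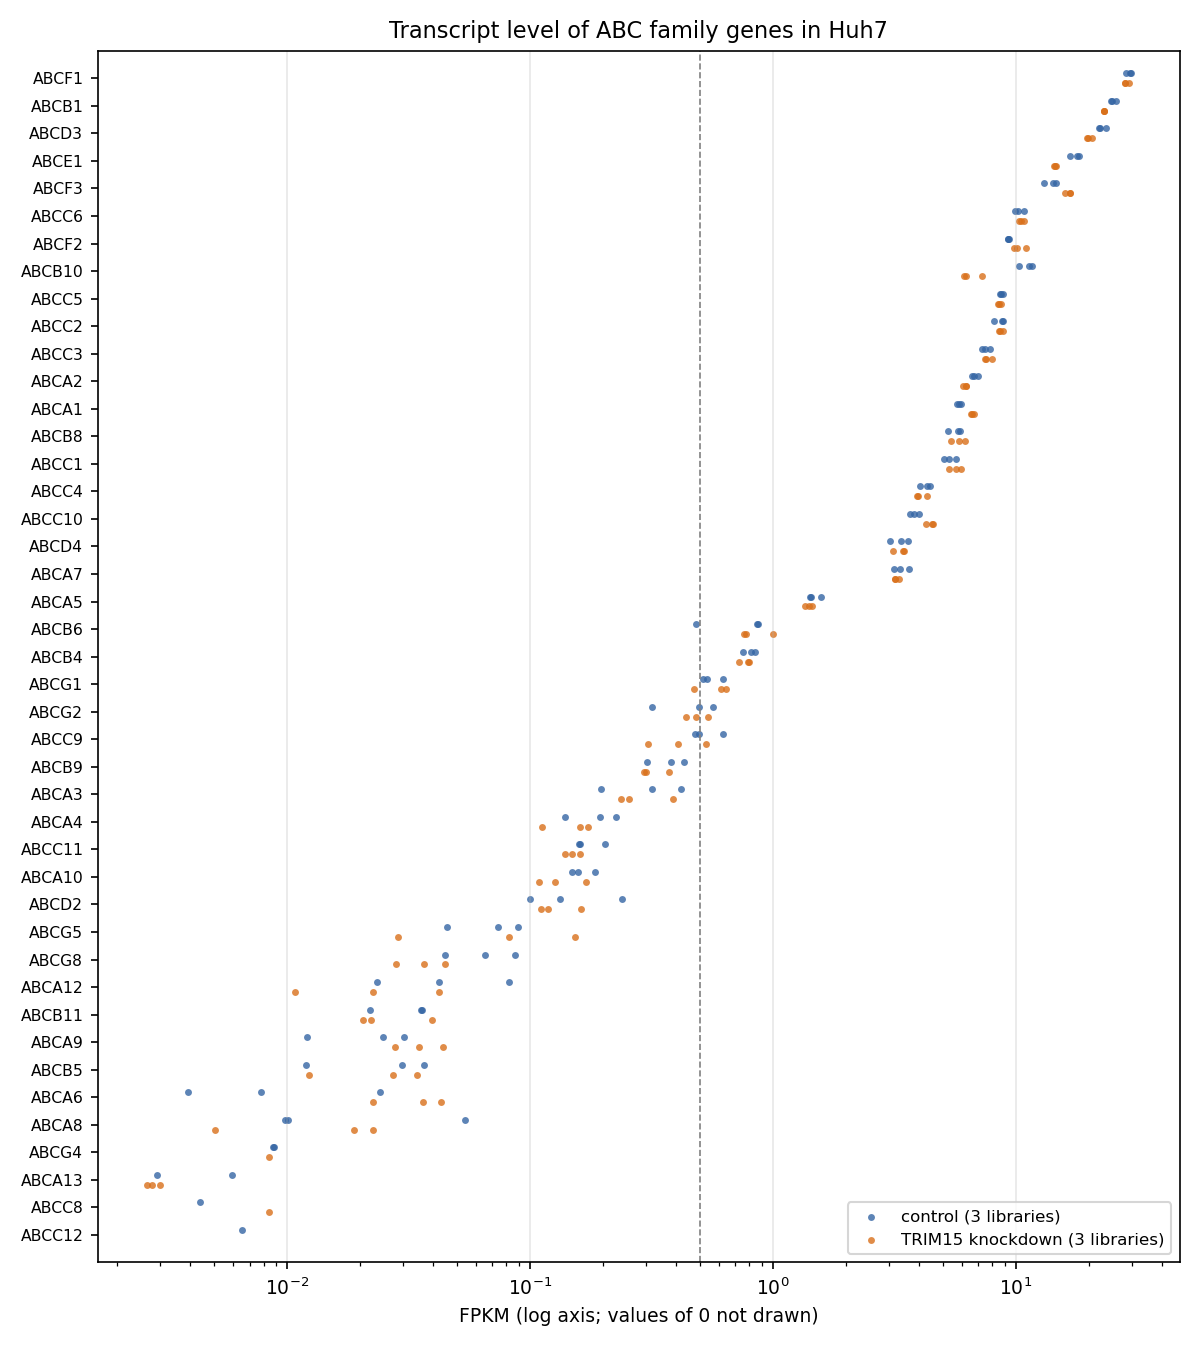
FPKM (log axis) of the ABC genes reported here in each of the 3 control and 3 TRIM15 knockdown libraries, ordered by mean; the dashed line marks 0.5 FPKM and values of 0 are not drawn. ABCF1 leads at 28.1 to 29.7 FPKM, ABCG2 straddles the line, and ABCB10 is the gene above 1 FPKM whose groups lie farthest apart.

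Knockdown was compared with control on log2(FPKM + 1), a scale that understates changes of genes near 1 FPKM. A gene was tested if 3 or more libraries reached 0.5 FPKM, and p-values come from limma, adjusted by the Benjamini-Hochberg method across the 14847 genes that qualified. Of the 25 ABC members tested, 7 passed an adjusted p under 0.05, or 28%, where 19.0% of all genes tested passed. ABCF3, ABCA1 and ABCC10 rose (3 of 25, or 12%, against 8.93% of all genes). ABCB10, ABCE1, ABCD3 and ABCB1 fell (4 of 25, or 16%, against 10.1%). The shares of all genes include non-coding genes. Of the 11652 protein-coding genes tested, the class of all members, 1258 rose and 1401 fell, which are larger shares. The median change of the members was -0.0035 on the log2 scale, against 0.0014 over all genes. The median absolute change was 0.055 for members and 0.098 for all genes tested. Members and all genes were not matched for level or gene type, so these medians do not rank their response. In all genes called, 47.0% were higher, or 57.1% when each library was rescaled to its own reads.

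Adding the FPKM of all 45 members gave 218.8 to 219.9 in the control libraries and 210.5 to 210.6 in the knockdown libraries. The mean difference in this sum, knockdown minus control, was -8.95 FPKM as deposited. It shrank to -5.78 FPKM when each library was rescaled to its own reads, with 218.0 to 219.1 FPKM in control and 212.7 to 213.3 FPKM in knockdown libraries. The 4 members that fell accounted for -12.3 FPKM as deposited and -11.3 FPKM rescaled, and the 3 that rose for 3.91 and 4.30 FPKM. The other 38 together changed sign with the scaling, from -0.558 to 1.21 FPKM. Groups did not overlap for 9 of 25 members, or 36%, which is near the 37.8% of all genes tested. The 2 such members that did not pass were ABCF2 and ABCA2. Fitted with voom on whole reads counted back from FPKM, 8 members passed (32%, against 28.2% of all genes), namely the same 7 and ABCF2.

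**Figure D2:**
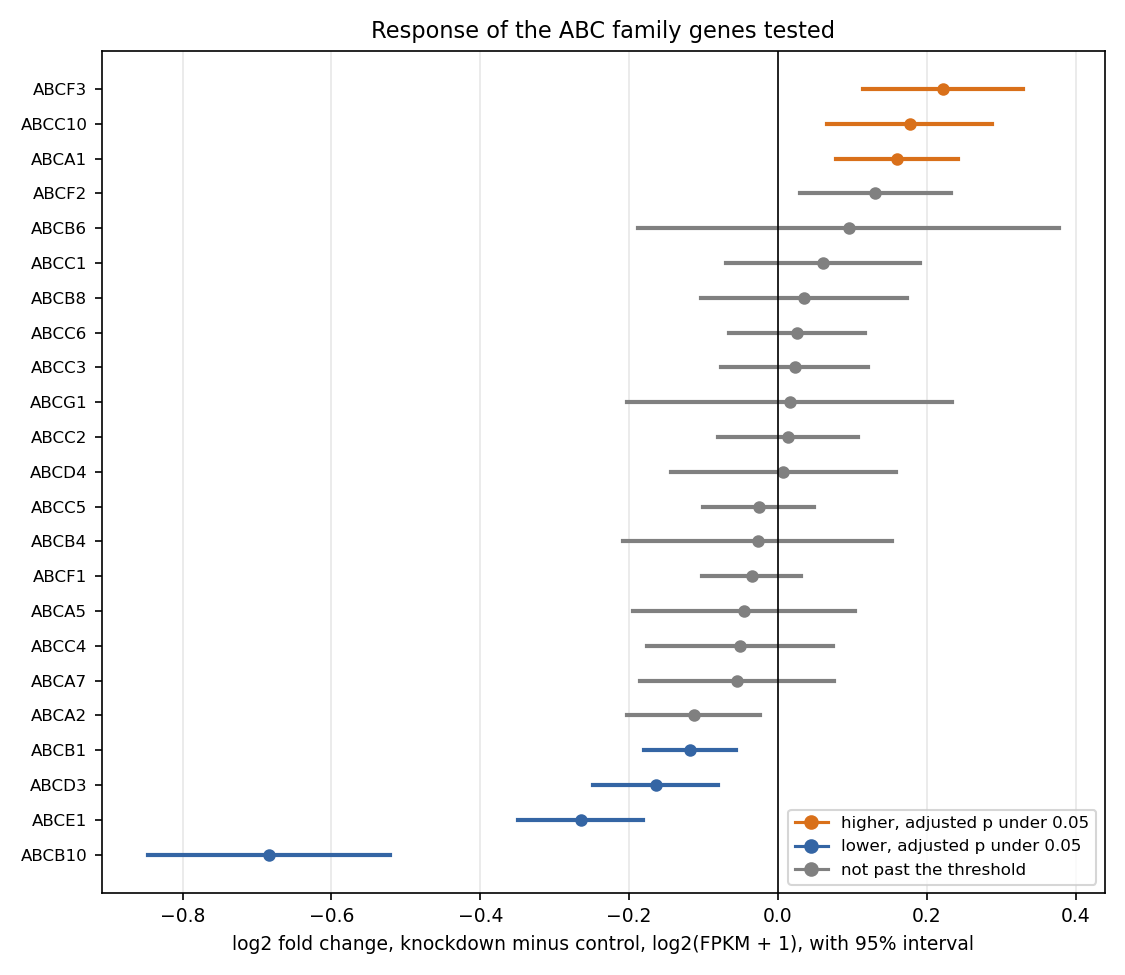
Log2 fold change of the tested ABC genes reported here, knockdown minus control on log2(FPKM + 1), with 95% intervals; orange is higher and blue lower at adjusted p under 0.05. ABCB10 lies apart at -0.68, and the other genes drawn lie between -0.27 and 0.22.

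Among the drug efflux pumps, ABCB1 fell slightly and none of the other 6 tested pumps passed, either in limma or with voom. Of all genes tested, 19.0% passed in limma and 28.2% with voom, and 7 pumps are few to set against these shares. None of the 6 had an unadjusted limma p under 0.05. Such p-values were common, since TAP1, at an unadjusted limma p of 0.0514, ranked 4901 of 14847 genes. The summed level of the 8 pumps was 70.4 ± 1.42 FPKM in control and 68.7 ± 0.894 FPKM in knockdown libraries (SD, n = 3). This difference of -1.70 FPKM became -0.673 FPKM after rescaling to own reads. In order of FPKM, ABCB1 came first, at more than the level of any other pump in every library, and ABCC6 second. ABCC5 and ABCC2 overlapped in their FPKM ranges. ABCC3, ABCC1, ABCC4 and ABCG2 followed, each below the FPKM range of the one before. This order depends on the gene lengths used. By mean reads per library, ABCC5 (1816.5) stood above ABCC6 (1449), and ABCC3 (1340) above ABCC2 (1241). Neither measure gives a firm order between genes.

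ABCB1 (ENSG00000085563, chromosome 7, 87503633 to 87713323 on GRCh38) encodes P-glycoprotein, the broad-range pump of lipophilic drugs. It stood at 24.7, 25.8 and 24.8 FPKM in the control libraries and at 23.0, 23.1 and 23.0 FPKM in the knockdown libraries. All knockdown values lay below all control values, and the knockdown libraries were nearly level. The mean was 91.8% of control, a log2 fold change of -0.12 (SE 0.0261, 95% interval -0.18 to -0.0567) with an adjusted p of 0.0220 from limma. On whole reads, voom gave -0.10 with an adjusted p of 0.0177. The call was lost without control replicate 2 and without knockdown replicate 1, 2 or 3 (adjusted p 0.0638 to 0.0700), and without the variance trend (0.0632).

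RefSeq lists separate start sites for ABCB1, and FPKM values per gene do not tell transcripts from them apart. The windows of 250 bases before and 50 after these starts are printed because ABCB1 is the pump that changed. Sequences are from RefSeq on GRCh38.p14, 5′ to 3′ on the gene's strand, with the letters CCAAT or their reverse complement in capitals.
ABCB1 upstream start, chr7:87713246-87713545, minus strand: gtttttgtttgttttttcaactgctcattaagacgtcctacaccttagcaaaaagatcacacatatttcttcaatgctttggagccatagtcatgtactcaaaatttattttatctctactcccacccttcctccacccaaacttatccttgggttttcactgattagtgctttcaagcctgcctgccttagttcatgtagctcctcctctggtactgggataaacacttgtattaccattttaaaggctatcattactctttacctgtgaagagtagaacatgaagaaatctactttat
ABCB1 downstream start, chr7:87600835-87601134, minus strand: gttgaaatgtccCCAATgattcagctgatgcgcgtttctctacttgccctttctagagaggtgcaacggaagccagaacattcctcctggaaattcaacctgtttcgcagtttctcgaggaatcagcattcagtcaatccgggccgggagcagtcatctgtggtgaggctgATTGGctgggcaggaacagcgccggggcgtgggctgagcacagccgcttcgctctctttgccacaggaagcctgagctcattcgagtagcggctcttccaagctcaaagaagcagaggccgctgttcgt
The downstream window held 2 matches, at positions -238 and -79 relative to the start site, and the upstream window 0. Its GC content was 55.3%, against 37.7% upstream. CCAAT, searched on both strands, occurred in 34.6% of 35116 windows of this length, so a match describes the letters and nothing about a factor.

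ABCC1 (MRP1), a basolateral exporter of glutathione conjugates, was at 5.08, 5.32 and 5.69 FPKM in control and 5.30, 5.65 and 5.96 FPKM in knockdown libraries. The groups overlapped, with a log2 fold change of 0.06 (95% interval -0.0693 to 0.19, adjusted p 0.505). ABCC2 (MRP2), which exports bilirubin glucuronides into bile, read 8.16, 8.83 and 8.79 FPKM in control and 8.87, 8.52 and 8.64 FPKM in knockdown libraries. Its log2 fold change was 0.0133 (95% interval -0.0805 to 0.11, adjusted p 0.858), and the groups again overlapped.

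ABCC3 (MRP3), a basolateral route for organic anions, gave 7.87, 7.44 and 7.29 FPKM in control libraries and 7.53, 7.49 and 7.98 FPKM after knockdown. The knockdown values lay both within and above the control range (log2 fold change 0.0222, 95% interval -0.0765 to 0.12, adjusted p 0.762). For ABCC4 (MRP4), an exporter of cyclic nucleotides and bile acids, controls were at 4.02, 4.30 and 4.42 FPKM and knockdown libraries at 3.95, 3.92 and 4.33 FPKM. Here 2 of 3 knockdown values lay below the lowest control (log2 fold change -0.0511, 95% interval -0.18 to 0.0735, adjusted p 0.565). ABCC5 (MRP5), which also carries cyclic nucleotides, had 8.71, 8.90 and 8.62 FPKM in control and 8.48, 8.73 and 8.50 FPKM in knockdown libraries. Its groups overlapped as well (log2 fold change -0.0261, 95% interval -0.10 to 0.0480, adjusted p 0.624).

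ABCC6 (MRP6), which in liver mediates ATP release and is mutated in pseudoxanthoma elasticum, was at 10.3, 10.8 and 9.96 FPKM in control and 10.5, 10.3 and 10.8 FPKM in knockdown libraries. Knockdown values lay inside the control range or at its top (log2 fold change 0.0253, 95% interval -0.0657 to 0.12, adjusted p 0.706). Reads of ABCC6 can be shared with its pseudogenes. Of the 50-base words of a 5747-base ABCC6 transcript, 14.1% also occur in ABCC6P1 and 5.48% in ABCC6P2. ABCC6P1 (chromosome 16, 18571162 to 18598328) averaged 9.32 ± 0.274 FPKM in control and 8.34 ± 0.217 FPKM in knockdown libraries (SD, n = 3). It fell in limma (log2 fold change -0.14, adjusted p 0.0338) but did not pass with voom (adjusted p 0.0998). How the authors' counting placed shared reads is not given, so the levels of both genes are uncertain.

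ABCG2, the breast cancer resistance protein, was barely detected. It stood at 0.318, 0.494 and 0.568 FPKM in control libraries and 0.483, 0.542 and 0.440 FPKM in knockdown libraries, from 29 to 54 reads each. With 2 of 6 libraries at 0.5 FPKM or more, it was not among the genes tested by limma. A voom fit of all genes with at least 10 reads in total, chosen after the data were seen, gave a log2 fold change of 0.15 (95% interval -0.32 to 0.62, adjusted p 0.766). Values across this interval, a fall as well as a rise, remain compatible with the few reads of ABCG2.

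The 6 tested pumps that did not pass had 95% intervals within -0.18 to 0.19 on the log2 scale. On whole reads, their voom intervals ran from 89.1% to 115% of control. A p-value above the threshold does not show that a pump was the same in both groups, but larger differences than these lay outside every one of the 6 intervals.

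**Figure D3:**
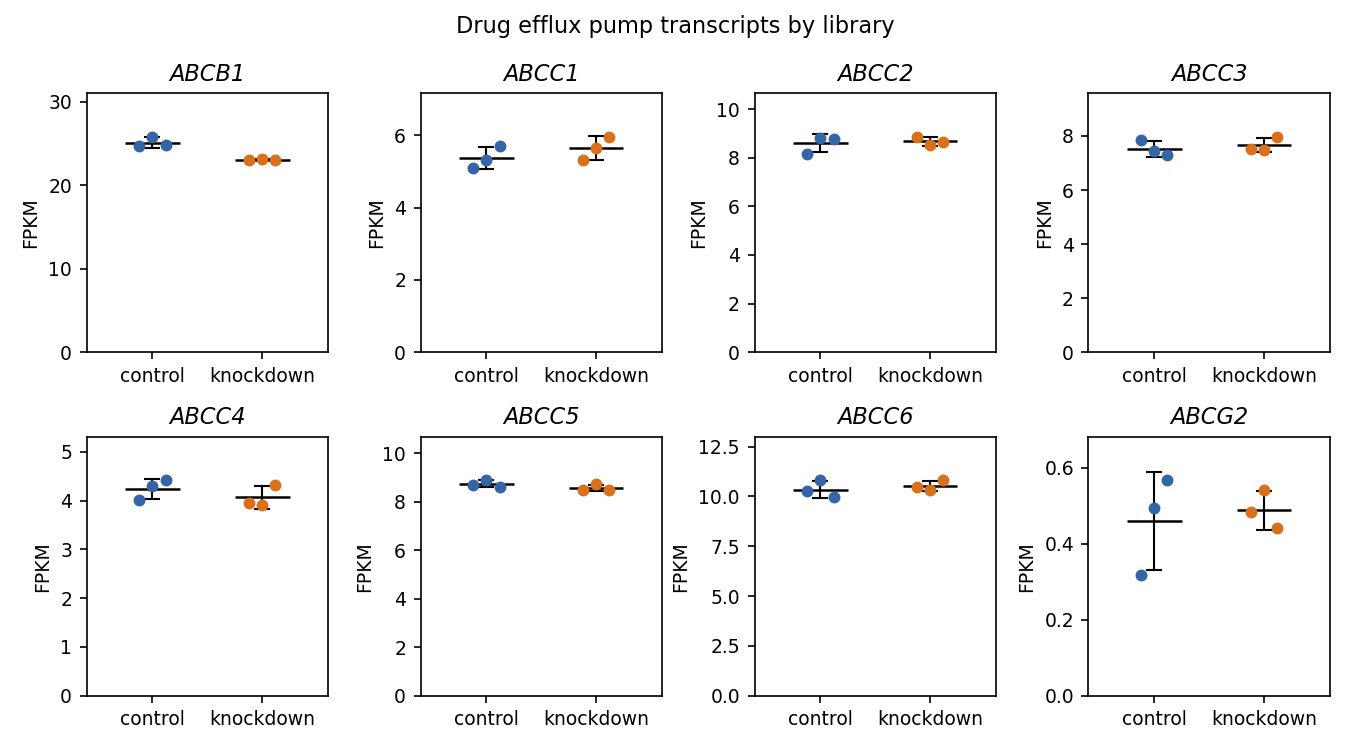
FPKM of the 8 drug efflux pumps by library, each panel with its own axis from 0; the horizontal line is the group mean and the bars are ±1 SD (n = 3). In ABCB1 the 3 knockdown libraries (23.0 to 23.1 FPKM) lie below the 3 control libraries (24.7 to 25.8 FPKM), and in the other 7 pumps the groups overlap.

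Of the mitochondrial and endomembrane transporters, which work as dimers, 4 of 5 were tested and ABCB10 fell while 3 did not pass. ABCB10 (ENSG00000135776, chromosome 1, 229516582 to 229558695 on GRCh38) sits in the inner mitochondrial membrane, where it supports haem synthesis and protects against oxidative stress. The control libraries had 10.3, 11.3 and 11.6 FPKM, and the knockdown libraries 7.25, 6.14 and 6.22 FPKM. The highest knockdown library was well below the lowest control. ABCB10 was reduced to 58.9% of control, a log2 fold change of -0.68 (SE 0.0688, adjusted p 0.00120). With voom the fold change was -0.74 (adjusted p 5.46e-15), and the call was kept under all 16 alternatives. Of all 14847 genes tested, 55, or 0.370%, fell by as much or more on log2(FPKM + 1), so ABCB10 belongs to the larger decreases on that scale. Because the scale understates changes of genes near 1 FPKM, the share by ratio may be larger.

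The RefSeq promoter window of ABCB10 is shown because no member changed more. Capitals mark GC boxes (GGGCGG or its reverse complement), of which there were 4, at positions from -154 to -56 relative to the start site.
ABCB10, chr1:229558658-229558957, minus strand: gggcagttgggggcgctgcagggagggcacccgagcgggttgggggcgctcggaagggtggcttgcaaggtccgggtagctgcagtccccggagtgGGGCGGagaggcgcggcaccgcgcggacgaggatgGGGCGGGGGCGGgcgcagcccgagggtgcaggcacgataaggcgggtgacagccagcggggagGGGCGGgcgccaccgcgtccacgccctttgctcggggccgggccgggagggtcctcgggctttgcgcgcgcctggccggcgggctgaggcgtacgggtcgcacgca
The window had a GC content of 77.3%. GC boxes were present in 14 of the 19 tested members with a RefSeq window and in 44.95% of all windows. Members were counted per gene, with a match in any of its windows, and the background per window, so these values differ in unit.

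The tested members of this group also included ABCB8, of the inner mitochondrial membrane, and ABCB6, a porphyrin transporter. ABCB8 had means of 5.64 and 5.81 FPKM in control and knockdown (adjusted p 0.730) and ABCB6 0.735 and 0.846 FPKM (adjusted p 0.641). In sum the group was at 22.1 ± 0.420 FPKM in control and 17.8 ± 0.942 FPKM in knockdown libraries (SD, n = 3). The difference in ABCB10 alone was -4.56 FPKM.

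The soluble ATPases moved in both directions. All 4 were tested, ABCE1 fell, ABCF3 rose, and ABCF1 and ABCF2 did not pass. ABCE1 (ENSG00000164163, chromosome 4, 145097932 to 145129179) recycles ribosomes by splitting them into subunits. Controls were at 16.8, 17.8 and 18.2 FPKM and knockdown libraries at 14.3, 14.5 and 14.6 FPKM, a clear separation with a narrow knockdown group. The knockdown mean was 82.2% of control (log2 fold change -0.27, SE 0.0355, adjusted p 0.00347), and ABCE1 also kept its call under all 16 alternatives. OTUD4 overlaps 18342 bases of the ABCE1 locus on the opposite strand and averaged 3.97 FPKM. The library kit marks strand, per the labels, but whether the counting used it is not given.

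The window before the RefSeq start of ABCE1 held TGTTTAC, a core sequence recognised by FOXO factors, at position -241 relative to the start site. It is printed because the series title names FOXO1, with that match in capitals.
ABCE1, chr4:145098061-145098360, plus strand: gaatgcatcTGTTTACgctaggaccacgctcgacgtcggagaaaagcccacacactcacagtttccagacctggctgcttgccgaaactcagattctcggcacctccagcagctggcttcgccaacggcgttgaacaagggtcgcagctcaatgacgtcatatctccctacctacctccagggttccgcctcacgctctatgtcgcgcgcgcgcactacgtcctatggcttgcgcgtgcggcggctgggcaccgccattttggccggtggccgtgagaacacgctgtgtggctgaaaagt
TGTTTAC, on either strand, was found for 2 of 19 tested members with a window (ABCE1 and ABCF1), counted per gene, and in 3.42% of all windows. ABCE1 fell and ABCF1 did not pass, and no binding was measured here.

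ABCF3 (ENSG00000161204, chromosome 3, 184186023 to 184194012), a ribosome-associated ATPase with a role in antiviral defence in mice, rose. It was at 14.6, 14.3 and 13.1 FPKM in control and 16.7, 16.7 and 16.0 FPKM in knockdown libraries, without overlap. The knockdown mean was 118% of control (log2 fold change 0.22, SE 0.0454, adjusted p 0.0166). Leaving out knockdown replicate 1 or 2 ended the call (adjusted p 0.0585 and 0.0580). ABCF2, whose role is less well defined, had control means of 9.33 ± 0.0224 FPKM and knockdown means of 10.3 ± 0.594 FPKM (SD, n = 3) without overlap. It did not pass in limma (log2 fold change 0.13, adjusted p 0.0789) but passed with voom (adjusted p 0.0222). ABCF1 was at 29.3 ± 0.625 and 28.6 ± 0.674 FPKM (log2 fold change -0.0351, adjusted p 0.449). The 4 genes summed to 70.2 ± 0.242 FPKM in control and 69.8 ± 0.847 FPKM after knockdown. This difference of -0.388 FPKM turned to 0.652 FPKM after rescaling to own reads.

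**Figure D4:**
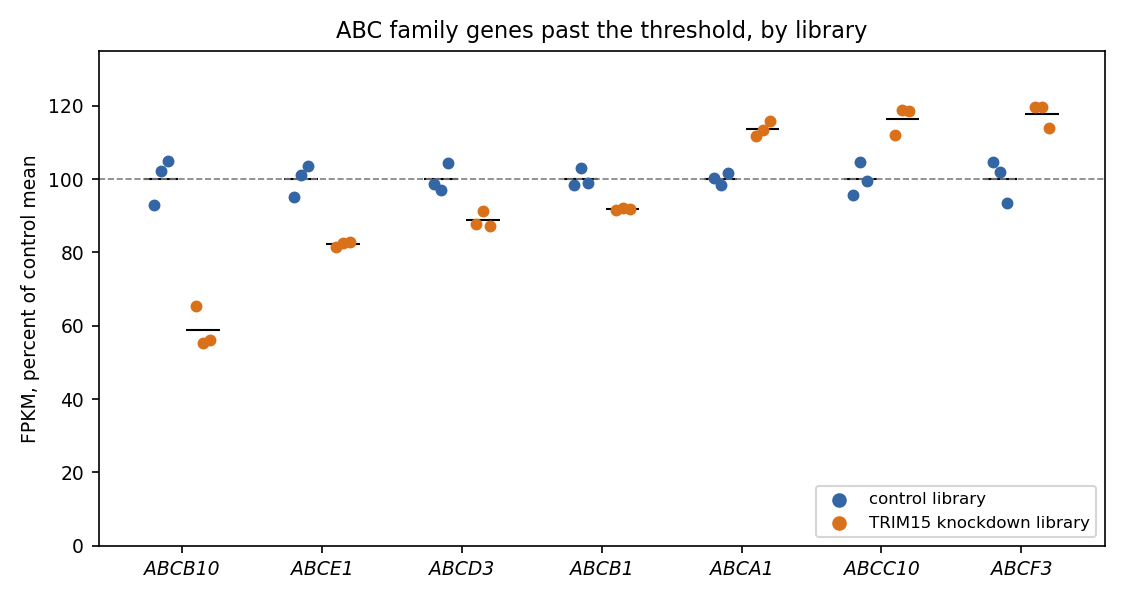
FPKM of the 7 ABC genes past the threshold in each library, as percent of the control mean (dashed line at 100); short lines are group means. ABCB10 falls to 58.9%, ABCE1, ABCD3 and ABCB1 to between 82.2 and 91.8%, and ABCA1, ABCC10 and ABCF3 rise to between 114 and 118%.

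In the D subfamily, 3 of 4 members were tested and ABCD3 fell. ABCD3 (ENSG00000117528, chromosome 1, 94418455 to 94518666), the most abundant peroxisomal membrane transporter, brings branched and dicarboxylic fatty acids and bile acid precursors into peroxisomes. Its values were 22.3, 21.9 and 23.6 FPKM in control and 19.8, 20.6 and 19.7 FPKM in knockdown libraries, again without overlap. The knockdown mean was 88.7% of control (log2 fold change -0.16, SE 0.0353, adjusted p 0.0201). The call was lost without knockdown replicate 1 (adjusted p 0.0673) or 3 (0.0712) and without the variance trend (0.0510). ABCD4, which takes part in lysosomal cobalamin export, averaged 3.33 FPKM in control and 3.34 FPKM in knockdown (adjusted p 0.958). The summed D subfamily went from 32.4 ± 0.851 to 29.6 ± 0.474 FPKM (SD, n = 3).

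Among the lipid exporters of the A and G subfamilies, 5 of 14 were tested and ABCA1 rose. ABCA1 (ENSG00000165029, chromosome 9, 104781002 to 104928237) passes cholesterol and phospholipid to apolipoprotein A-I and is mutated in Tangier disease. The control libraries read 5.84, 5.73 and 5.92 FPKM and the knockdown libraries 6.51, 6.62 and 6.76 FPKM. Both groups were tight and did not overlap. ABCA1 rose to 114% of control (log2 fold change 0.16, SE 0.0346, adjusted p 0.0209), and voom gave 0.21 (adjusted p 0.000177). The call was lost without control replicate 1 or 2 (adjusted p 0.0504 and 0.0685) and without knockdown replicate 2 or 3 (0.0635 and 0.0750).

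ABCA1 is a classical target of the liver X receptors, which bind as partners of retinoid X receptors to a repeated element with a spacer of 4 bases (DR4). A search for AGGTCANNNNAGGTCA, allowing 1 mismatch in each arm and on both strands, found 1 match in the ABCA1 window, at position -69 relative to the RefSeq start. The matched letters are in capitals.
ABCA1, chr9:104928106-104928405, minus strand: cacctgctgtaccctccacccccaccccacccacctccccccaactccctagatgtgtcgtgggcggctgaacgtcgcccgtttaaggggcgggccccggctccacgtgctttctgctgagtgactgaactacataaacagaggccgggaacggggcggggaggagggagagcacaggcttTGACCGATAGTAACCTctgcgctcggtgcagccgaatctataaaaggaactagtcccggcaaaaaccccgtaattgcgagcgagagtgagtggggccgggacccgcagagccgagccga
Such a match was present for 2 of 19 tested members with a window (ABCA1 and ABCC6), counted per gene, and in 1.38% of all windows. ABCC6, the other member with a match, did not pass the test.

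Of the other tested lipid exporters, ABCA2, an endolysosomal sterol and sphingolipid transporter, came closest to the threshold. It averaged 6.77 ± 0.218 FPKM in control and 6.18 ± 0.122 FPKM in knockdown libraries (SD, n = 3) without overlap (log2 fold change -0.11, adjusted p 0.0820). ABCA7, a phospholipid exporter linked to Alzheimer's disease, had means of 3.39 and 3.22 FPKM (adjusted p 0.548). ABCA5 averaged 1.48 and 1.40 FPKM (adjusted p 0.674). ABCG1, which exports cholesterol to high-density lipoprotein and is also a liver X receptor target, averaged 0.558 and 0.575 FPKM (adjusted p 0.933), close to the filter. The 14 lipid exporters together stood at 18.8 ± 0.542 FPKM in control and 18.7 ± 0.165 FPKM after knockdown, and the sign of this difference also turned with the rescaling (-0.104 and 0.175 FPKM).

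Of the 4 bile and sterol exporters, ABCB4 alone was tested, with 0.804 and 0.770 FPKM in control and knockdown (adjusted p 0.847). In the remaining group of sulfonylurea receptors and other C and B members, 1 of 6 was tested. This was ABCC10 (MRP7; ENSG00000124574, chromosome 6, 43427366 to 43450430), an exporter known to confer taxane resistance when overexpressed, which was not among the 8 pumps listed for the efflux comparison. It was at 3.66, 4.01 and 3.81 FPKM in control and 4.28, 4.55 and 4.54 FPKM in knockdown libraries, without overlap. ABCC10 rose to 116% of control (log2 fold change 0.18, SE 0.0469, adjusted p 0.0408). Leaving out any 1 of the 6 libraries ended this call (adjusted p 0.0536 to 0.119), as did removing the filter on low values (0.0908).

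The 20 members not tested missed the filter of 0.5 FPKM in 3 libraries, and 18 of the 45 members were under 0.5 FPKM in every library. The filter is per gene length, so long genes such as ABCC9 could miss it with 67 to 128 reads per library. ABCC9, the SUR2 sulfonylurea receptor, ranged from 0.306 to 0.624 FPKM, while ABCC8, the SUR1 receptor of the pancreatic beta cell, had 0 to 2 reads per library. ABCG4, ABCA13 and ABCC12 were likewise listed at 0 in at least 1 library. In the added voom fit, none of the 16 with at least 10 reads in total passed after adjustment, and 2, ABCA6 and ABCC9, had an unadjusted p under 0.05. ABCA6 came nearest, with 9 reads in all control and 27 in all knockdown libraries (adjusted p 0.1002).

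Some members that are neighbours in the genome differed widely in level, and others were both low. ABCG5 and ABCG8, which overlap, averaged 0.0787 and 0.0509 FPKM over the 6 libraries. ABCB4 and ABCB1 lie 23.2 kb apart on chromosome 7 on the same strand and averaged 0.787 and 24.1 FPKM. ABCC1 and ABCC6 end 5.85 kb apart on chromosome 16 and averaged 5.50 and 10.4 FPKM. ABCC5 and ABCF3, 168 kb apart on chromosome 3, averaged 8.66 and 15.2 FPKM, and of these ABCF3 rose and ABCC5 did not pass. ABCA8, ABCA9, ABCA6, ABCA10 and ABCA5 form a cluster on chromosome 17, in which ABCA5 alone averaged over 1 FPKM.

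Genes that regulate these transporters or work with them were taken from lists by function. Of 61 tested, 5 rose and 9 fell in limma, where 8.93% of all genes rose and 10.1% fell. Their median log2 fold change was -0.0259. With voom the balance turned, to 17 higher and 8 lower. Over all genes tested it turned too, from 1326 higher and 1498 lower in limma to 2360 and 1822 with voom. Among 17 tested regulators that sense drugs and sterols, 3 rose and 3 fell in limma, and 8 rose and 4 fell with voom. Of all genes tested, 19.0% passed in limma and 28.2% with voom. Higher genes made up 47.0% of all limma calls and 56.4% of all voom calls. NR1H2, which encodes liver X receptor beta, rose from 22.7 ± 0.573 to 27.1 ± 0.930 FPKM (log2 fold change 0.24, adjusted p 0.00378). NR1H3, which encodes liver X receptor alpha, averaged 7.74 FPKM in control and 8.10 FPKM in knockdown and did not pass in limma (adjusted p 0.633). The retinoid X receptor genes RXRA and RXRB did not pass in limma either (adjusted p 0.321 and 0.0959), although RXRB passed with voom (adjusted p 0.00202). A link of these receptors to ABCA1 was not tested. SREBF1, the master regulator of fatty acid synthesis, rose from 25.02 ± 0.542 to 28.4 ± 0.353 FPKM (0.17, adjusted p 0.00493). NR1H4, the bile acid receptor FXR, fell from 3.81 ± 0.206 to 2.87 ± 0.444 FPKM (-0.32, adjusted p 0.0429), and NR5A2, a nuclear receptor of bile acid synthesis, from 14.6 ± 0.112 to 12.8 ± 0.244 FPKM (-0.18, adjusted p 0.00608). These SDs are over 3 libraries. The pregnane X receptor NR1I2, an inducer of ABCB1 and ABCC2 in liver, reached at most 0.0296 FPKM in any library.

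Drug handling beside efflux showed no limma call, in short lists. Of all genes tested, 19.0% passed in limma and 28.2% with voom. None of 4 tested uptake carriers and none of 9 tested phase I and II enzymes passed in limma after adjustment. In each list, 1 gene had an unadjusted limma p under 0.05 and 1 passed with voom. Over all 14847 genes, TAP1, at an unadjusted limma p of 0.0514, ranked 4901, so counts this small say little about these lists. Among 10 genes of canalicular anchoring and traffic, ATP8B1, a phospholipid flippase that protects the canalicular membrane, rose from 4.83 to 5.76 FPKM (log2 fold change 0.21, adjusted p 0.0198). TMEM30A, the subunit that flippases such as ATP8B1 need, fell from 40.4 to 34.8 FPKM (-0.21, adjusted p 0.00420), and EZR, which encodes the membrane linker ezrin, from 94.6 to 87.6 FPKM (-0.11, adjusted p 0.0360).

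Lists of partners of single members were short, with 1 to 4 genes tested in each. Of all genes tested, 19.0% passed in limma and 28.2% with voom, so a call or 2 in such a list says little about it. Of the 3 peroxisomal membrane import genes, which insert proteins such as ABCD3, PEX16 rose from 8.56 to 9.60 FPKM (log2 fold change 0.15, adjusted p 0.0348). Of the 4 partners of ABCE1 in termination and ribosome rescue, GSPT1, the release factor eRF3a, fell from 36.0 to 33.8 FPKM (-0.09, adjusted p 0.0431). Of the 3 subunits of initiation factor eIF2, with which ABCF1 works, EIF2S1 fell from 15.1 to 13.7 FPKM (-0.14, adjusted p 0.0288) and EIF2S2 from 112 to 106 FPKM (-0.08, adjusted p 0.0374), although EIF2S2 did not pass with voom (adjusted p 0.0980). KCNJ8, a potassium channel subunit that pairs with ABCC9, fell from 6.38 to 5.63 FPKM (-0.15, adjusted p 0.0217), but with voom the adjusted p was 0.204.

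Of 8 apolipoprotein and cholesterol carrier genes tested, none passed in limma after adjustment, 3 had an unadjusted limma p under 0.05 and 2 passed with voom. Of all genes tested, 19.0% passed in limma and 28.2% with voom. Unadjusted p-values under 0.05 were common too, since TAP1, at an unadjusted limma p of 0.0514, ranked 4901 of 14847 genes. These counts therefore show no particular response of the list. APOA1, the acceptor of ABCA1-exported lipid, averaged 18.6 FPKM in control and 19.7 FPKM in knockdown libraries (adjusted p 0.256). Of the family genes with other symbols, TAP1 and TAP2, which load peptides for antigen presentation, averaged 5.37 and 1.13 FPKM in control and 4.83 and 0.879 FPKM in knockdown libraries (adjusted p 0.156 and 0.195). CFTR, a chloride channel, lay between 0.153 and 0.207 FPKM and was not tested.

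**Figure D5:**
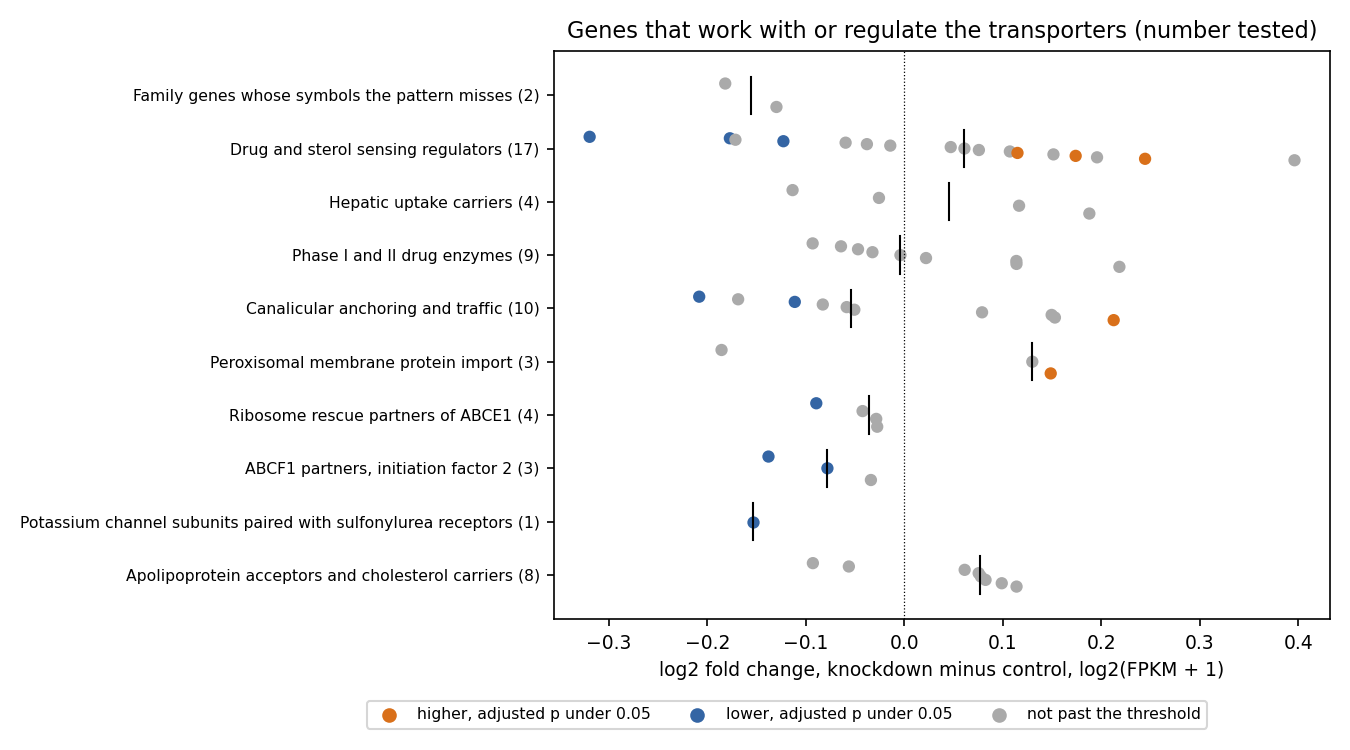
Log2 fold change of 61 tested genes that regulate or work with the transporters, by list (number tested in brackets); points are genes, black bars list medians, orange higher and blue lower at adjusted p under 0.05. Limma calls among the regulators number 3 higher and 3 lower (8 and 4 with voom), and NR1H4, at -0.32, is the called gene farthest from 0. Of all genes tested, 19.0% passed in limma and 28.2% with voom.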

How the data were processed

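RNA sequencing was done on 3 control and 3 TRIM15 knockdown libraries of Huh7 cells. The deposited table holds FPKM values that the authors computed per gene, with gene lengths; the aligner and counter are not given in the sources used here. The submitters' processing notes name mm10, a mouse build, but all 58735 gene identifiers and positions equal those of GENCODE 29 on human GRCh38. FPKM times gene length gave whole reads for 100% of values (tolerance 0.01 read), and the library size behind each FPKM column was off the read total by -0.37 to -0.359% (control) and 1.04 to 1.27% (knockdown).

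Genes with at least 0.5 FPKM in 3 of 6 libraries were fitted with limma 3.58.1 in R 4.3.3 on log2(FPKM + 1), with moderated variances that follow a trend. Tests were two-sided, adjusted by Benjamini and Hochberg's method across 14847 genes, with a threshold of 0.05. voom on the whole reads, other pseudocounts, filters and scalings, a replicate term and leaving out each library were alternatives. Rescaling of the summed levels was added after the data were seen. Scripts were tested on simulated data. Members and lists were chosen with earlier results of these data known. Values in each library are given for the 8 pumps and for other members past the threshold. Of members not past it, the 5 most abundant and the 3 nearest the threshold are named with errors, the others by mean or range. Of other lists, at most 4 called genes are named by size of change. APOA1, TAP1, TAP2, CFTR, NR1I2, NR1H3, RXRA, RXRB and the ABCC6 pseudogenes are exceptions, named after their values were seen. Promoter windows of RefSeq (GRCh38.p14) matched 19 of 25 tested members. Single members of the family that are not reported here stay in its counts and sums, and 1 other gene was left out of its list.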

Additional observations from a re-analysis of the deposited data

How the results depend on the processing

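Of the 7 called members, ABCB10 and ABCE1 kept their call under all 16 alternatives, 5 lost it under at least 1, and 0 changed direction. Members called numbered 3 to 6 with 1 library left out, when all genes called numbered 1770 to 2339, against 2824. Without the variance trend, 5 members, 0 pumps and 2187 genes were called. With 1 library left out, 0 to 1 pumps were called. With no filter, 6 members and 1888 genes were called, of more genes tested.

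Replicate numbers were not taken to pair the samples. Deviations of same-numbered libraries correlated at 0.0125, 0.00862 and 0.0133, under the limit of 0.1 set for pairing. Every library still correlated best with its own number, so these values do not show that pairing is absent. With the replicate block, 3 members, 0 pumps and 1913 genes were called. ABCB1, ABCD3, ABCA1 and ABCC10 were those not called (adjusted p 0.0591, 0.0629, 0.0642 and 0.0702 from limma).

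Among members not called and reported here, 6 changed sign under some alternative. The ranges with 1 library left out were -0.0139 to 0.151 for ABCB6, -0.00791 to 0.0766 for ABCB8, -0.0195 to 0.0312 for ABCC2, -0.00331 to 0.049996 for ABCC3, -0.0426 to 0.0504 for ABCD4 and -0.0148 to 0.0639 for ABCG1, all as log2 fold changes. The cause was not tested. Depth limits most the 12 members that averaged under 0.1 FPKM.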
